A study of Mus musculus with 48 samples.

Results

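The hippocampal transcriptome of 6 APP/PS1 mice and 6 WT mice that drank plain water was compared on one-color arrays. These 12 arrays were chosen by their labels for tissue, agent and genotype, and they are 12 of the 24 hippocampus arrays and of the 48 arrays of the series. APP/PS1 mice were heterozygous APPswe/PS1dE9 males on a C57Bl6/J background, and WT mice were their littermate controls. Both groups stood as the untreated arm of a drug study and received water (H2O) from an age of 3 months by the sample protocol (the series description gives a start 1 month later) until they were 9 to 10 months old. The drug arms comprised 6 APP/PS1 and 6 WT other mice given MSX-3 at 0.3 g/L of drinking water, a prodrug of an antagonist of the adenosine receptor that Adora2a encodes. Their values were set beside those on water. They also entered the choice of probes to test and the fits of all hippocampus groups. Each array carried RNA of 1 mouse, so that n counts animals. Mice were caged by genotype, and cage and genotype therefore cannot be told apart. The question was which transcripts differ between the genotypes when no antagonist is given.

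The APPswe/PS1dE9 line carries mutant transgenes of familial Alzheimer's disease under a mouse prion protein promoter and deposits amyloid plaques in cortex and hippocampus with age. Microglia, the resident macrophages of the brain, gather around such plaques and switch on lipid, lysosomal and phagocytic genes through the surface receptor TREM2 and its adaptor TYROBP, while genes of the resting state tend to be lowered in the cells that touch plaques. A further set of genes, induced by type I interferon, can be raised in the same tissue, and astrocytes near plaques increase the intermediate filament GFAP. In whole hippocampus, fewer cells of a type and less RNA per cell cannot be told apart, and the same holds for more cells and more RNA per cell.

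Levels are given below as log2 signal relative to the 75th percentile of the array, so that a probe at 0 was as bright as that percentile, and levels of different probes are not set against each other. A probe was called when limma gave an adjusted p under 0.05 and the fold change was at least 1.5. Of 56605 probes, 38128 were tested, those for which 4 or more mice of any hippocampus group gave a signal well above background. Arrays of 1 genotype correlated at 0.9794 to 0.9927 in APP/PS1 H2O mice and at 0.9717 to 0.9922 in WT H2O mice. The 75th percentile itself had the same mean of 9.56 in both groups. The share of spots well above background ran from 60.4 to 69% (median 65.55%) in APP/PS1 H2O mice and from 64.2 to 73.3% (median 68.75%) in WT H2O mice (two-sided exact permutation p = 0.0693, adjusted 0.208 over 3 technical values). Scan day was not balanced. All 6 APP/PS1 H2O arrays were scanned on the first day, with 2 of the WT H2O arrays, and the other 4 WT H2O arrays were scanned on the second day. Counts with the scan day as a block are therefore printed beside the main ones, and with that block the estimate of a gene equals the one from the first-day arrays, 6 against 2.

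A total of 144 probes was called, 129 higher and 15 lower in APP/PS1 H2O mice, which is 0.378% of the probes tested, and 3929 probes had an unadjusted p under 0.05. The probes that rose stood for 113 named genes, and their fold changes ran from 1.5 to 23.6 with a median of 1.88. The groups did not overlap for 124 of the 129 probes that rose and for 14 of the 15 that fell, against 1.24% of all probes tested whose groups did not overlap. Of the probes that rose, 114 were well above background on all 12 arrays. Of the probes that fell, 1 was. With the scan day as a block 68 probes were called, of which 61 were among the 144. With the slide as a block 2 were called in these 12 arrays and 121 when all 4 hippocampus groups were fitted together, 100 of them among the 144, and all 129 and all 15 kept their sign in each of these fits. Slide was not balanced either. Of the slides that carried these 12 arrays, only slides 2 and 5 held both genotypes, with 1 array of each. The estimate with the slide block in the 12 arrays therefore rests on those slides. In the first-day arrays all 129 probes that rose stayed positive (median log2 fold change 0.96, against 0.91 in all arrays) and all 15 that fell stayed negative (median -0.87, against -0.91).

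**Figure D1:**
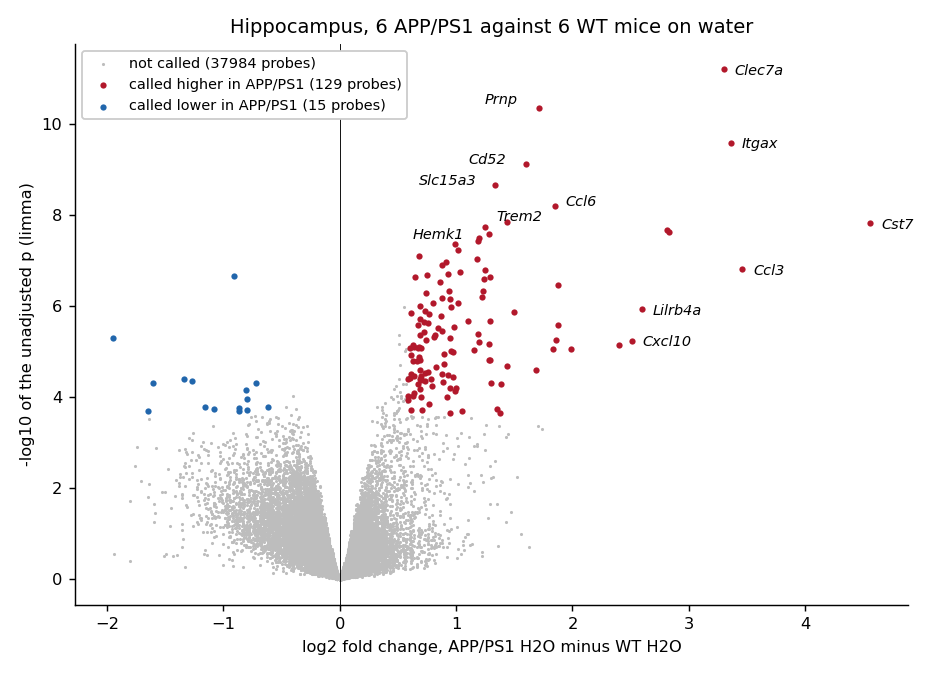
Each point is 1 of the 38128 probes tested, with the log2 fold change of 6 APP/PS1 H2O against 6 WT H2O mice on the x axis and -log10 of the unadjusted limma p on the y axis. Red points are the 129 probes that rose and blue points the 15 that fell, and Cst7 lies farthest to the right at 4.56.

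The genotype labels were checked first. The representative probe of Prnp, the gene for the prion protein, whose promoter drives the transgenes, read 7.01 at the lowest, 7.17 at the median and 7.34 at the highest in APP/PS1 H2O mice. In WT H2O mice it read 5.29, 5.48 and 5.61. The groups did not overlap, and the log2 fold change was 1.71 ± 0.08 (SE, n = 6 per group; adjusted p = 8.39e-07). The other Prnp probe was not called (-0.10 ± 0.08; adjusted p = 0.727). The representative probe of App read 5.64 to 5.97 in APP/PS1 and 5.38 to 5.86 in WT H2O mice (log2 fold change 0.16 ± 0.09; adjusted p = 0.572). Neuronal Snap25 and Slc17a7, Prox1 of granule cells and Wfs1 of CA1 pyramidal cells were well above background on all 12 arrays.

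Microglial genes known from plaques were among the largest changes. For the gene lists, each gene was represented by 1 tested probe, the brightest of those named through RefSeq where there was one, which gave 16737 genes, of which 95 rose (0.568%) and 5 fell (0.0299%). In the list of plaque-associated microglial genes, 12 of 27 tested members rose and 0 fell, with a median log2 fold change of 0.57 over the 27 against 0.01 over all genes. Members that rose were Cst7, Itgax, Clec7a, Ccl6, Cd52, Trem2, Tyrobp, Cd68, B2m, Ctsd, Ctsz and Igf1. With the scan day as a block, 10 of them were called, against 0.293% of all genes, and B2m and Igf1 were not.

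Cst7, for cystatin F, an inhibitor of lysosomal cysteine proteases, read -0.22, 0.37 and 0.82 (lowest, median and highest) in APP/PS1 H2O mice and -5.08, -4.29 and -2.72 in WT H2O mice. All 6 APP/PS1 values lay above all WT values, and the log2 fold change was 4.56 ± 0.35 (adjusted p = 7.29e-05), the largest of all genes tested. Clec7a, for the pattern receptor dectin-1, read -1.18, -0.95 and -0.60 against -4.47, -4.21 and -3.82, a log2 fold change of 3.30 ± 0.13 and the smallest adjusted p of the comparison (2.42e-07). The Clec7a probe was named only from the study's lists of changed probes. Its place among the called members of this list and of the TREM2-SYK list below is bound up with that choice. Itgax, for the integrin CD11c, read -2.54, -2.35 and -1.80 in APP/PS1 H2O mice and -6.04, -5.81 and -5.13 in WT H2O mice, where 1 of 6 arrays was well above background (3.36 ± 0.18; adjusted p = 3.26e-06). It passed the filter on background only through APP/PS1 mice and so had to differ, and its WT level is largely unmeasured.

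Trem2 read 2.82, 2.92 and 3.27 in APP/PS1 H2O and 1.5, 1.74 and 1.87 in WT H2O mice. The groups did not overlap, and the log2 fold change was 1.25 ± 0.10 (adjusted p = 7.57e-05). Its adaptor Tyrobp rose from a WT median of 1.54 to an APP/PS1 median of 2.76 (1.22 ± 0.13; adjusted p = 0.000675). Ccl6, a chemokine of myeloid cells, rose by 1.85, Cd52, a surface glycoprotein of leukocytes, by 1.60, and Cd68, a lysosomal membrane protein of macrophages, by 1.20 on the log2 scale, with adjusted p of 3.95e-05, 7.19e-06 and 9.31e-05. Not every member of the list moved. The lipid genes Apoe and Lpl had log2 fold changes of 0.16 and 0.05, Axl of 0.25 and Spp1, for osteopontin, of 0.17, with adjusted p from 0.531 to 0.932. Cd9, a tetraspanin, had an adjusted p of 0.0155 at a log2 fold change of 0.54 and so stayed under the minimum fold change.

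**Figure D2:**
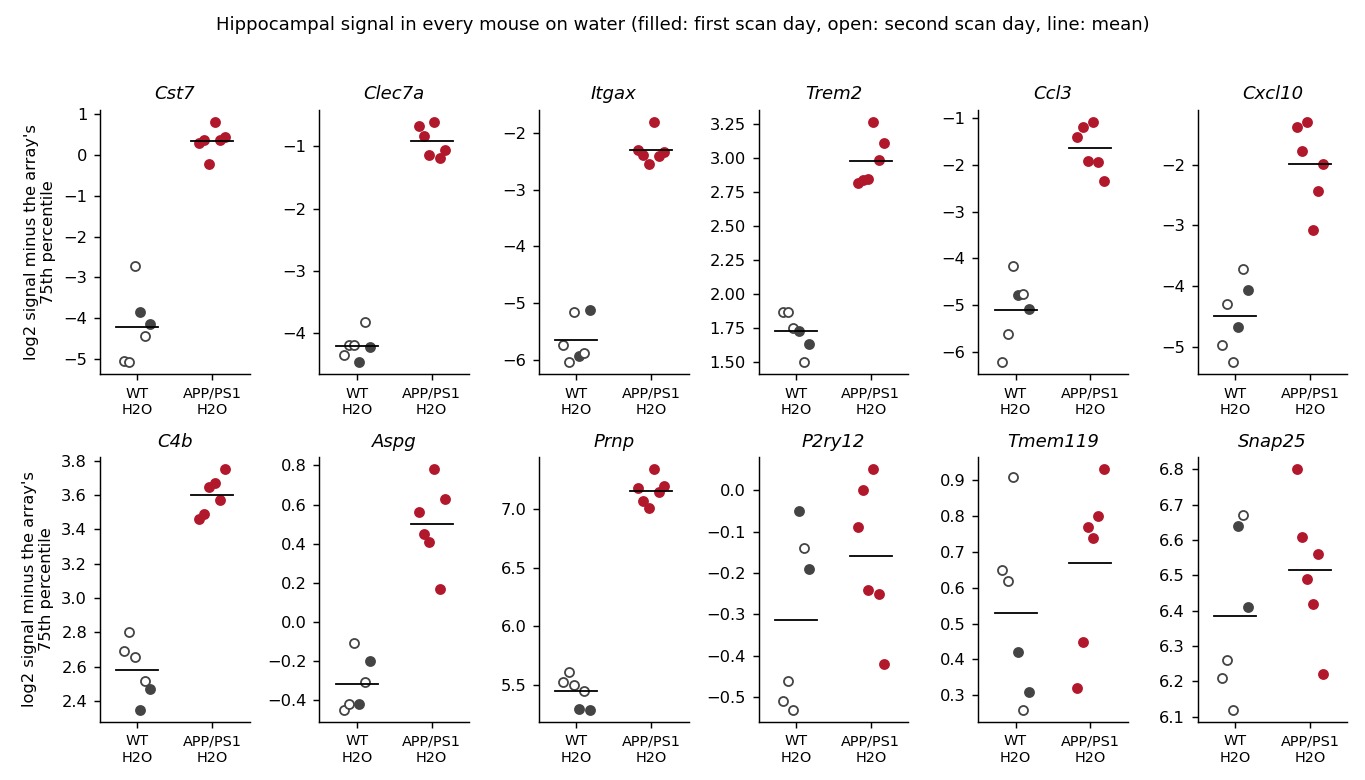
The log2 signal relative to the array's 75th percentile is shown for 12 genes in each of the 12 mice, with WT H2O in grey and APP/PS1 H2O in red, filled for the first and open for the second scan day, and a line at each group's mean. Cst7, Clec7a, Itgax, Trem2, Ccl3, Cxcl10, C4b, Aspg and Prnp separate the genotypes, and P2ry12, Tmem119 and Snap25 overlap.

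For genes of resting microglia no call was made. In the list of homeostatic microglial genes 0 of 20 tested members were called by limma in either direction. Of the 20, 12 had an unadjusted p under 0.05, against 8.94% of all genes. Estimates were above 0 for 17 of the 20, with a median of 0.23 against 0.01 over all genes. P2ry12, for a purinergic receptor of microglial processes, read -0.42 to 0.05 in APP/PS1 and -0.53 to -0.05 in WT H2O mice, a log2 fold change of 0.15 ± 0.11 (adjusted p = 0.67). For Tmem119, a surface protein particular to microglia, it was 0.14 ± 0.13 (adjusted p = 0.759). Csf1r and Cx3cr1, for the receptors of colony stimulating factor 1 and fractalkine, and Fcrls were higher by 0.39, 0.37 and 0.51 with adjusted p of 0.033, 0.047 and 0.00368, which is under 1.5-fold. The other Csf1r probe stood at 0.02 (adjusted p = 0.982). Another probe of Cx3cr1 did pass both limits (0.95 ± 0.12; adjusted p = 0.00292), as did one of Siglech, a sialic acid receptor (0.72 ± 0.09; adjusted p = 0.00237). Genes shared by all myeloid cells rose in 13 of 27 tested cases and all 27 estimates were positive, with a median of 0.56. Among them were Tyrobp, Runx1 and Irf8, both transcription factors of the lineage (0.93 and 0.91), the phosphatase Ptpn6 (0.90), the pan-leukocyte marker Ptprc (0.86) and the lysosomal membrane protein Laptm5 (0.80). With the scan day as a block 8 of the 27 were called, 7 of them the same. Spi1 and Cybb did not pass the filter on background.

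Along the signalling path of TREM2, receptors and adaptors were called and several enzymes below them were not. Of 20 tested members of a TREM2-SYK list 8 rose, and they were Clec7a, Trem2, Tyrobp, Hcst, Lat2, Fcer1g, Cd300c2 and Vav1. Hcst, for the second adaptor DAP10, rose by 1.19 ± 0.10 (adjusted p = 0.000104), and all 4 of its probes were called. Another probe of Lat2 was not called (0.01; adjusted p = 0.995). The kinase Syk itself had a log2 fold change of -0.03 (adjusted p = 0.944), and the downstream Plcg2, Bcl10 and Malt1 had 0.24, 0.13 and 0.13 with adjusted p from 0.482 to 0.698. With the scan day as a block 4 of the 8 were called.

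Receptors of leukocytes followed, with 8 of 20 tested members called higher and 5 more listed members not above background. Lilrb4a, for an inhibitory receptor, read -3.40, -2.96 and -2.22 in APP/PS1 H2O mice and -6.56, -5.28 and -4.70 in WT H2O mice, where 2 of 6 arrays were well above background (2.60 ± 0.30; adjusted p = 0.00104). Cd72, a coreceptor better known from B cells, rose by 1.88 ± 0.19 (adjusted p = 0.000419) and Gpr65, a proton-sensing receptor, by 1.83 ± 0.25 (adjusted p = 0.00412), the latter with 1 of 6 WT H2O arrays well above background. Slamf9, the inhibitory Fc receptor Fcgr2b and the fatty acid receptor Gpr84 rose by 1.25, 1.19 and 1.15. Another probe of Fcgr2b was not called (0.36; adjusted p = 0.475). Of the 20 tested, 3 passed the filter only through APP/PS1 mice, Lilrb4a, Cd72 and Gpr65, so that their call was bound up with the filter and their WT levels are largely unmeasured. Blocked by scan day, 4 of the 8 were called, and Lilrb4a (adjusted p = 0.0671), Gpr84 (0.238), Fcer1g (0.111) and Cd86 (0.0752) were not. The T cell gene Cd3e was not called, with a log2 fold change of -0.14 ± 0.17 (adjusted p = 0.823). Of 20 tested Toll-like receptor genes 5 rose. Tlr2 rose by 1.03 ± 0.10 (adjusted p = 0.000293), followed by the coreceptor Cd14 (0.75), Tlr12 (0.70), Ly86 (0.69) and the transcription factor Irf5 (0.61). Blocked in the same way, 3 of the 5 were called, and Tlr12 (adjusted p = 0.0671) and Irf5 (0.128) were not. Tlr4 had 0.31, Tlr7 0.41 and the shared adaptor Myd88 -0.09, with adjusted p from 0.732 to 0.774.

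Chemokines gave some of the steepest rises. Of 19 tested chemokine and cytokine genes 6 rose, 0 fell and 12 more, such as Il1b, Il6, Ifnb1 and Cxcl9, were not above background. Ccl3, for a chemokine that attracts monocytes and T cells, read -2.35, -1.66 and -1.08 in APP/PS1 H2O mice and -6.21, -4.93 and -4.17 in WT H2O mice, in which 3 of 6 arrays were well above background. The groups lay far apart, with a log2 fold change of 3.46 ± 0.33 (adjusted p = 0.000279). The related Ccl4 rose by 2.83 ± 0.23 (adjusted p = 8e-05), with its second probe at 2.81. Cxcl10, an interferon-induced ligand of CXCR3, rose by 2.51 ± 0.33 (adjusted p = 0.00319), Cxcl5 by 1.69 and Ccl12 by 1.30. Ccl5, a T cell attractant, read -3.33 to -1.5 in APP/PS1 and -4.20 to -3.27 in WT H2O mice and was not called (1.26 ± 0.26; adjusted p = 0.0684). Tnf read 0.10 (adjusted p = 0.955). With the scan day as a block Ccl3, Ccl4 and Ccl6 were called, and Cxcl10 kept its size (2.37) with an adjusted p of 0.148.

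The interferon response was broad and, mouse by mouse, less even. Of 41 tested members 12 rose, 40 estimates were above 0 and 33 had an unadjusted p under 0.05, against 8.94% of all genes. The list had the highest median of all lists, 0.76. Members that rose were Cxcl10, Ifi27l2a, Oas1a, Ifit1, Usp18, Phf11d, Oasl2, Irf7, Rsad2, Phf11b, Parp14 and Lgals3bp. With the scan day as a block 1 of the 12 was called, Ifi27l2a, although the median of the list was then 0.82. With all 4 hippocampus groups in 1 fit and the scan day as a block, 15 members were called, 10 of them among the 12, against 0.687% of all genes. Oas1a, for an enzyme that makes 2'-5' oligoadenylates when double-stranded RNA is present, read -2.18, -1.5 and -0.99 in APP/PS1 and -3.36, -3.05 and -2.42 in WT H2O mice (1.44 ± 0.22; adjusted p = 0.00808). Irf7, the transcription factor that amplifies the response, rose from a WT median of -1.35 to an APP/PS1 median of 0.03 (1.28 ± 0.19; adjusted p = 0.00637). Ifit1, which binds viral RNA, read -4.51, -3.35 and -2.88 against -5.30, -4.97 and -4.46, so that the groups overlapped slightly (1.38 ± 0.27; adjusted p = 0.0477). Isg15 had 0.98 with an adjusted p of 0.149. Several of these genes have close paralogs (Oas1a, Phf11b and Phf11d, Ifitm7), as have Lyz1 and Lyz2 and the class I genes, and their probes could share signal.

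Promoters of 4 of these genes are printed because the letters by which interferon regulatory factors are known to bind, the core of the interferon-stimulated response element, stand in them. They span 250 bases before to 50 after the start of the gene in RefSeq (build GRCm38.p6), are written on the strand of the gene, and carry in capitals each match to GAAANNGAA on either strand, joined where matches overlap. Cxcl10 lies at chr5:92348840-92349139 on the minus strand, Oas1a at chr5:120907476-120907775 on the minus strand, Ifit1 at chr19:34640639-34640938 on the plus strand and Rsad2, for the antiviral protein viperin, at chr12:26456403-26456702 on the minus strand.
Cxcl10: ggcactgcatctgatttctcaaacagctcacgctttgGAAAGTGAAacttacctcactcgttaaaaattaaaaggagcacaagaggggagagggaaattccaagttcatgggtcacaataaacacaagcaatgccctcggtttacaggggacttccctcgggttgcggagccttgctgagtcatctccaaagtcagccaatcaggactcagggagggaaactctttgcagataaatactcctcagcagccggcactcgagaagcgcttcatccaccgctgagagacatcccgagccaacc
Oas1a: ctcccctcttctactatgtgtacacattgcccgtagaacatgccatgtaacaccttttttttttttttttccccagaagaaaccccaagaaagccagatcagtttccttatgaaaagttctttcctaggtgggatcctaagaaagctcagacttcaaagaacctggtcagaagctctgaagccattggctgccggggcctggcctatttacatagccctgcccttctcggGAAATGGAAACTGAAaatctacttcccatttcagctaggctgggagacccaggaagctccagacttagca
Ifit1: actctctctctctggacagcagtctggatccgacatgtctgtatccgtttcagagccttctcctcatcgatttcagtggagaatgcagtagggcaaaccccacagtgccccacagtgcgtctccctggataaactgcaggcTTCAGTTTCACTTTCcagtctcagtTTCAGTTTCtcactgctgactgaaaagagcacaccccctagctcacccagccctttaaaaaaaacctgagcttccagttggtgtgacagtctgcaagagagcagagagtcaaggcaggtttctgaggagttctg
Rsad2: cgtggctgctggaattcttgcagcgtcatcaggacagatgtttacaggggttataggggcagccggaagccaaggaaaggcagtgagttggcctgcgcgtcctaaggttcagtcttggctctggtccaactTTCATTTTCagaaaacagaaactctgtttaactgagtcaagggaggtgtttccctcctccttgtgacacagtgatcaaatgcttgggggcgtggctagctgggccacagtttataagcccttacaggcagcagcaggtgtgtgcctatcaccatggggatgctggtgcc

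The motif stood in the promoters of 19 of the 31 tested members of the interferon list that had a promoter in the table (61.3%), against 8.73% of all genes tested and 8.56% of all 32851 promoters. Of the members that rose and had a promoter, 5 of 9 carried it. Of all 82 genes that rose and had a promoter, 15 did (18.3%), among them Ccl3, B2m and Lyz1. The letters GAGGAAGT, known to be bound by the myeloid factor PU.1, stood in 8 of the 82 (9.76%) against 3.45% of all genes tested. Of both other motifs searched on both strands, TTCNNNGAA, bound by STAT factors, was found in 8.54% of the 82 and in 8.56% of all genes tested, and TCACGTGA, bound by TFEB, in 3.66% and 1.83%. Such matches describe the letters only.

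Some genes of antigen presentation and complement were called, with smaller differences. Of 19 tested class I genes 6 rose, Psmb8 of the immunoproteasome by 0.79, the light chain B2m by 0.69 and the heavy chains H2-K1, H2-T23, H2-Q7 and H2-D1 by 0.59 to 0.64. These calls were close to the limits: with the scan day as a block no class I gene was called (median of the list 0.38, against 0.30), and leaving out 1 mouse at a time ended the call of H2-Q7 for 10, of H2-D1 for 9 and of H2-T23 for 8 of the 12 mice. Of 10 tested class II genes 1 rose, the costimulator Cd86 (0.59), whose call ended with the scan day as a block (adjusted p = 0.0752) and for 9 of the 12 mice when left out, while Cd74 and H2-Ab1 had 0.77 each with adjusted p of 0.325 and 0.51. Of 19 tested complement genes 4 rose. C4b read 3.46, 3.61 and 3.75 in APP/PS1 and 2.35, 2.59 and 2.80 in WT H2O mice (1.02 ± 0.09; adjusted p = 0.00014). The 3 chains of C1q, which starts the classical pathway, rose by 0.81 (C1qa), 0.76 (C1qc) and 0.73 (C1qb). C4b and C1qa were called with the scan day as a block, and C1qc (adjusted p = 0.0572) and C1qb (0.088) were not. C3 had a log2 fold change of 0.05 (adjusted p = 0.964).

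Among 39 tested lysosomal genes 9 rose, of which 8 were called with the scan day as a block. They were the transporters Slc15a3 (1.33 ± 0.09; adjusted p = 1.69e-05) and Slc11a1 (0.98), Lyz1 for lysozyme (1.29), Cd68, Laptm5 and the cathepsins Ctss, Ctsd, Ctsz and Ctsh (0.65 to 0.68). Ctss read 4.01, 4.09 and 4.14 in APP/PS1 and 3.31, 3.39 and 3.53 in WT H2O mice, a narrow spread with no overlap (adjusted p = 0.000175). The general lysosomal genes Lamp1, Lamp2 and Npc1 and the master regulator Tfeb had 0.12, 0.02, 0.14 and 0.02, with adjusted p from 0.528 to 0.977. For Lyz2 the probe named through RefSeq had 1.70 (adjusted p = 0.0694) and a second one, named from the study's gene lists, 1.44 (adjusted p = 7.29e-05).

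**Figure D3:**
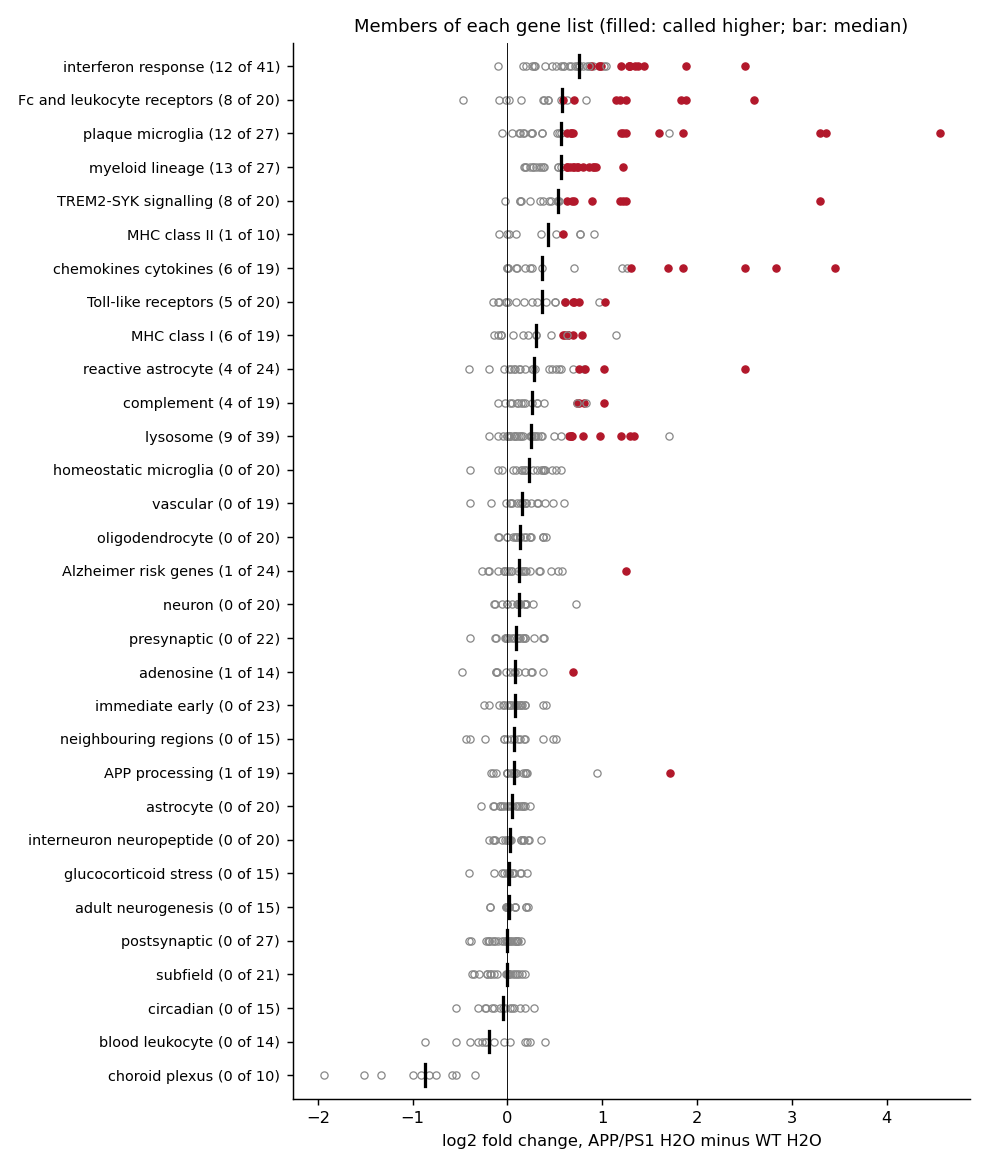
Each circle is 1 tested gene of a list, at its log2 fold change of APP/PS1 H2O against WT H2O mice, filled where it was called higher, with a bar at the list's median and the number called of the number tested beside each name. The interferon list has the highest median (0.76) and the choroid plexus list the lowest (-0.87, with 0 called).

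Astrocytes differed between markers. Of 24 tested reactive astrocyte genes 4 rose, C4b, Cxcl10, Cd14 and Aspg, and the first 3 of them are also made by microglia. Aspg, for an asparaginase, read 0.17, 0.50 and 0.78 in APP/PS1 and -0.45, -0.36 and -0.11 in WT H2O mice (0.82 ± 0.10; adjusted p = 0.00262). C4b and Cd14 were called with the scan day as a block, and Aspg (0.81; adjusted p = 0.0989) and Cxcl10 (2.37; 0.148) were not. Gfap gave a divided result. Its representative probe read 2.76, 3.30 and 3.57 against 2.27, 2.65 and 2.83, overlapped between the groups and was not called (0.69 ± 0.15; adjusted p = 0.0693). Its other probe read 2.09, 2.51 and 2.65 against 1.28, 1.45 and 1.66, did not overlap and was called (0.96 ± 0.11; adjusted p = 0.000936). Vim, Serpina3n and Lcn2 had 0.44, 0.04 and -0.41 with adjusted p of 0.14, 0.953 and 0.757. Of 20 general astrocyte genes, Aqp4 and Aldh1l1 among them, 0 were called by limma and 1 had an unadjusted p under 0.05, with a median of 0.05.

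Neuronal and synaptic genes showed no called change at their representative probe. Over 7 lists of neurons, interneurons, subfields, adult neurogenesis, both sides of the synapse and immediate early genes, limma called 0 of 143 tested genes, and 12 had an unadjusted p under 0.05 (8.39%, against 8.94% of all genes). Their log2 fold changes ran from -0.41 to 0.72 (Slc17a6), with a median of 0.03, a median SE of 0.13 and a smallest adjusted p of 0.124 (Crh). Snap25 had 0.13 ± 0.12, Rbfox3, for the neuronal protein NeuN, 0.00 ± 0.11, Slc17a7 -0.14 ± 0.10 and Gad1 -0.13 ± 0.08. One exception at another probe was Syngr1, a synaptic vesicle gene, with 1 probe at 0.87 ± 0.10 (adjusted p = 0.00131) and its representative probe at -0.13 (adjusted p = 0.673). The lists of oligodendrocytes, vessels, blood leukocytes, neighbouring brain regions, the clock and glucocorticoid targets held 0 called genes of limma as well, and with the general astrocyte and choroid plexus lists 7 of the 97 genes of other cell types and 2 of the 30 of the clock and stress lists had an unadjusted p under 0.05. The choroid plexus list, 0 of 10 called and 0 at an unadjusted p under 0.05, had all 10 estimates below 0. Its defining gene Ttr, for transthyretin, ran from -1.59 to 7.57 in APP/PS1 and from -2.06 to 7.59 in WT H2O mice, so the amount of choroid plexus RNA differed widely between mice of 1 genotype.

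Of the genes behind the drug arm, 1 of 14 tested adenosine genes rose. Adora3, for the adenosine A3 receptor, read -1.89, -1.71 and -1.52 in APP/PS1 and -2.54, -2.44 and -2.25 in WT H2O mice (0.69 ± 0.08; adjusted p = 0.00149), and it was called with the scan day as a block too. Adora2a, for the receptor that MSX-3 targets through its active form, read -4.62, -3.21 and -2.14 against -3.51, -3.02 and -1.55, with overlap over most of the range (-0.48 ± 0.39; adjusted p = 0.706). Adora1 had 0.03 (adjusted p = 0.94). Of 19 tested genes of APP processing Prnp alone was called, and Bace1, Adam10, Psen2 and Ncstn lay between 0.00 and 0.05. The Prnp call is that of the probe read above to check the genotype labels, and the other Prnp probe was not called. Of 24 tested genes near or in human Alzheimer risk loci, Trem2 alone was called. Inpp5d had 0.53 (adjusted p = 0.154) and Abi3 0.58 (adjusted p = 0.0316), the latter just under 1.5-fold.

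Of the 113 genes that rose, 83 stood in a list and 30 in none. The latter included Gm4951 (1.99, with 1 of 6 WT H2O arrays well above background), a relative of interferon-inducible GTPases, Glycam1 (1.86), the survival gene Bcl2a1d (1.24), the macrophage pore protein Mpeg1 (0.99 and 0.95 at its probes), the small GTPase Rab7b (0.94), the proton channel Hvcn1 (0.88) and Plau, for urokinase (0.84). Gm4951 passed the filter on background only through APP/PS1 mice, so that its call was bound up with the filter and its WT level is largely unmeasured. Gm11545 had 0 of 6 WT H2O arrays and 3 of 6 APP/PS1 H2O arrays well above background. Its call came from the limma log2 fold change of 2.40 (adjusted p = 0.00369), in which the WT side is unmeasured. It was at least 1.53-fold higher where the WT side was set to the lowest signal that counts as above background on each array, and that bound was not tested. It passed the filter only through APP/PS1 MSX-3 mice, with 4 of 6 arrays. For 18 of the 113 genes, such as Csf1 (1.10 and 0.95 at 2 probes), Treml2 (1.5) and Trim30a (1.18), the call came from a probe other than the representative one.

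The 15 probes that fell were of another kind. Their WT medians lay below -3 in 14 cases, and on 9 of them no APP/PS1 H2O array was well above background. Fut2, a fucosyltransferase, read -5.9, -5.62 and -5.05 in APP/PS1 and -4.89, -4.61 and -3.64 in WT H2O mice. It was at least 1.55-fold, Olfr539, an olfactory receptor, at least 1.29-fold and Myod1, a muscle factor, at least 1.01-fold lower, each with 0 of 6 APP/PS1 H2O arrays well above background. Gm31175 fell by 1.61 ± 0.26 on the log2 scale (adjusted p = 0.0153), with 1 such array, so that its APP/PS1 level is largely unmeasured. Slc15a2, a peptide transporter, fell at 1 of 4 probes and Eya4 at 1 of 2, the other probes lying between -0.89 and -0.03 and at 0.04. Between scan days, with the 4 hippocampus groups as terms, 14 of these 15 probes were dimmer on the first day (median -0.53), whereas the probes that rose had a median of -0.04, and 1364 of the 1375 probes called between scan days were dimmer on the first. The part of scan day in the lower calls was not tested further. A brighter probe without a gene name here, A_52_P365925, read 1.73, 1.78 and 1.89 in APP/PS1 and 2.48, 2.77 and 2.90 in WT H2O mice (-0.91 ± 0.09; adjusted p = 0.000308), and it alone of the 15 was also called with the scan day as a block (adjusted p = 0.0264).

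The same genotype difference was then read in the mice on MSX-3, which shared no array with the water groups and had 4 of 6 arrays of each genotype on the first scan day. There 120 probes were called, 119 of them higher, and 82 of the 16737 genes (0.49%). Of the 129 probes that rose on water 128 were above 0 on MSX-3, with a median of 0.85, and 75 were called. Of the 15 that fell on water 5 were below 0 on MSX-3, with a median of 0.14, and the 1 probe called lower on MSX-3 was not among them. The interaction of genotype and MSX-3 called 0 probes in limma (1869 at an unadjusted p under 0.05, smallest adjusted p 0.897). For no probe, therefore, was the genotype difference shown to change with the drink.

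**Figure D4:**
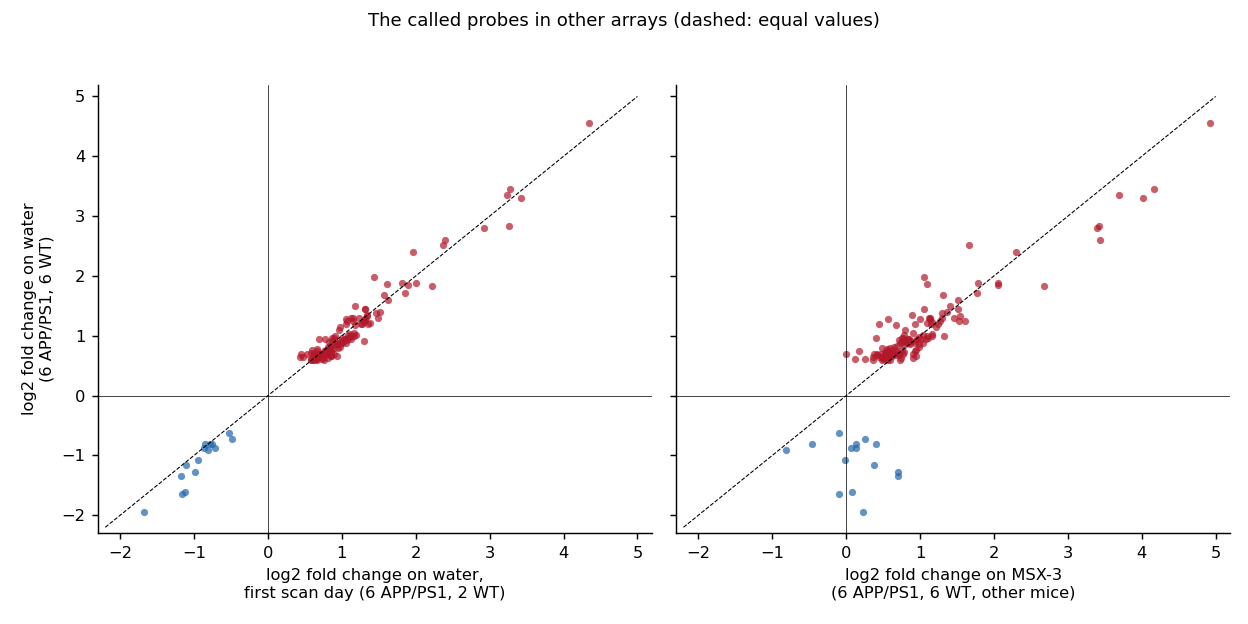
For the 144 called probes the log2 fold change on water (y axis) is set against that in the first-day arrays (left, 6 APP/PS1 and 2 WT mice, which are part of the same 12) and in the mice on MSX-3 (right, 6 and 6 other mice), with a dashed line at equal values. Red points, higher on water, are positive in all but 1 case on MSX-3, and blue points, lower on water, scatter around 0 there with a median of 0.14.

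List by list, 11 of the 12 plaque microglial genes that rose on water were also called on MSX-3, 7 of the 9 lysosomal, 8 of the 13 myeloid, 3 of the 4 complement, 5 of the 12 interferon genes and none of the class I genes, whose median was 0.64 on water and 0.49 on MSX-3. Cst7 had 4.56 on water and 4.92 on MSX-3, Clec7a 3.30 and 4.02, and Trem2 1.25 and 1.27. Genes called on water were chosen for their water values, which favours larger values there. Larger on water were 9 of the 12 interferon genes (medians 1.29 on water and 1.04 on MSX-3), 9 of the 13 myeloid, 6 of the 6 class I and 4 of the 4 complement genes, and 5 of the 12 plaque microglial and 4 of the 9 lysosomal genes. Irf7 had 1.28 and 0.57, Rsad2 1.20 and 0.45 and Parp14 0.97 and 0.41, with unadjusted interaction p of 0.0202, 0.055 and 0.00882 and no adjusted p under 0.897. Outside the lists, Tubb6, for a tubulin, had 0.74 and 0.18, and Rpph1, for the RNA of ribonuclease P, 0.70 and 0.00.

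Within the APP/PS1 H2O group, the plaque microglial and the interferon genes did not order the mice alike. Averaged over the 12 plaque microglial genes that rose, as a difference from the WT H2O mean, mouse 323 was highest at 2.01 and mouse 261 lowest at 1.57, and the other 4 lay between 1.69 and 1.75. Over the 12 interferon genes that rose, mouse 261 was highest at 1.86 and mouse 323 lowest at 0.93, with mouse 255 at 1.65, 259 at 1.40, 81 at 1.36 and 325 at 1.03. The interferon average therefore spanned 0.93 to 1.86 where the plaque microglial one spanned 1.57 to 2.01. In the APP/PS1 MSX-3 mice the same mice, 319 and 293, were the highest for both, at 2.06 and 1.95 for the plaque microglial and 1.62 and 1.64 for the interferon genes. The interferon average of mouse 293 leaned on Ifit1, which read -0.23 there and -4.25 to -3.62 in the other APP/PS1 MSX-3 mice. WT H2O mice lay within -0.13 to 0.22 and -0.08 to 0.10. WT MSX-3 mice lay within -0.17 to 0.16 for the plaque microglial genes and from -0.17 to 0.52 for the interferon genes, and mouse 303 was the highest of them. The genes were chosen for their difference between the groups, so the gap between genotypes in these averages is a description. The order of mice within a group was not used in choosing them.

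**Figure D5:**
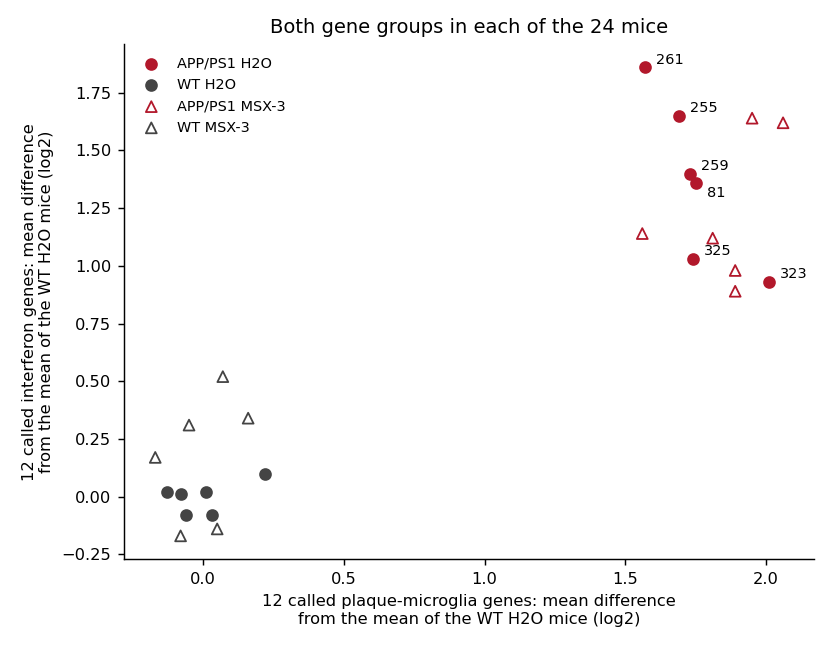
Each of the 24 hippocampus mice is placed by its mean over the 12 called plaque microglial genes (x axis) and the 12 called interferon genes (y axis), both as log2 difference from the mean of the WT H2O mice. Filled circles are mice on water and open triangles mice on MSX-3, and APP/PS1 H2O mice 323 and 261 stand at opposite ends of both axes within their group.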

How the data were processed

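Total RNA of the hippocampus of each mouse was hybridised to a one-color Agilent 8x60k array. The deposited values are intensities that the authors extracted with Agilent Feature Extraction 10.7.3.1, background-subtracted and not normalized between arrays. Spots marked as non-uniform or as population outliers were left out, and log2 intensities were scaled to the 75th percentile of each array and averaged per probe. A probe was kept where 4 or more mice of any of the 4 hippocampus groups had it well above background. The genotype difference was fitted in limma 3.58.1 (R 4.3.3; lmFit, eBayes, Benjamini-Hochberg adjustment over all 38128 probes), and a probe was called at an adjusted p below 0.05 if it also differed 1.5-fold or more. Technical values were compared with a two-sided exact permutation test, whose smallest possible p was 0.00216. Of the probes, 32994 were named through their RefSeq accession, 59 from gene lists of the study (names only), and 23552 had no name here. Those lists hold the probes that the study found changed between the genotypes on water, in cortex or hippocampus. A probe named from them had therefore already been chosen for its difference. Named by rule were the genes of the transgenes and the drug target, genes the study names, the 10 largest rises without overlap, the genes that fell, up to 6 called members of each list or else the 3 with the smallest unadjusted p, defining markers, the 5 smallest adjusted p and genes whose probes disagree. Other list members and genes of no list were picked for the text after their values were seen. A few genes are not reported here. Members and lists were chosen with earlier results of these data known. A gene was represented by its brightest kept probe, probes named through RefSeq first. Precision is limited by the number of arrays. The same steps were tested on simulated data. Alternatives were another background correction, quantile normalization, other filters, slide, scan day and leaving out each mouse.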

Additional observations from a re-analysis of the deposited data

Results flagged for a closer look

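In groups of 6 mice, a highest or lowest mouse stood apart from the other 5 by Dixon's ratio (its gap to the next mouse over the group's range, above the 95% critical value) in 20 of 274 groups tested, and chance alone gives about 1 in 20. In APP/PS1 H2O mouse 259, 4 choroid plexus genes stood high, Prlr at 0.864 (1.24 against -1.82 in the next mouse), Folr1 at 0.852 (2.68 against -1.73), Kl at 0.828 (1.62 against -0.05) and Kcne2 at 0.697 (1.12 against -4.33). Among the genes that rose, mouse 323 was high for Itgax at 0.68 and for Cd52 at 0.652. Other APP/PS1 H2O cases were Olfr539 (mouse 325 low, 0.723), Rgs9 (255 low, 0.689), Npas4 (81 high, 0.652) and Lef1 (261 high, 0.629).

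In WT H2O mice the genes reported here were Uchl1 (mouse 310 low, 0.744), Nr4a3 (56 high, 0.742), Itgal (56 high, 0.736), Mog (56 high, 0.736), Lyz1 (71 high, 0.732), Slc15a3 (308 high, 0.719), H2-Q7 (310 high, 0.697), Adora2a (71 high, 0.691) and Phf11d (56 low, 0.643). For Lyz1 the mouse that stood apart read -1.36 against -1.88 in the next, still below the lowest APP/PS1 H2O mouse at -0.97. For H2-Q7 it read 0.25 and lay within the APP/PS1 H2O range.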

How the results depend on the processing

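No called value of a named gene changed sign under the 15 other settings or with 1 mouse left out, and the number of calls moved most with the slide and the scan day. Against 144 called probes, normexp background correction gave 86, the slide as a block 2, the scan day as a block 68 and the first scan day alone 38. Of 137 named genes 62 were called, and 2, 29 and 19 with the slide block, the day block and the first day alone. Over the lists 71 genes were called, and 2, 37 and 22 under the same 3 settings. On MSX-3 the slide block gave 45 called probes against 120. Leaving out 1 mouse gave 123 to 157 called probes on water, 52 to 60 named genes, 63 to 76 list genes, 93 to 121 called probes on MSX-3 and 0 for the interaction. The named genes that lost their call most often were Olfr539 (11 of 12 mice), H2-Q7, Ifit1 and Usp18 (10 each). The value table of the series gave the same values as the scanner signal. No paired analysis was possible because each mouse gave 1 hippocampus array and the genotype groups hold different mice. With 2 WT H2O arrays on the first scan day, the precision of the within-day values is limited by that number. The slide block on water is limited further, since only slides 2 and 5 held both genotypes, with 1 water array of each.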

Other observations

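Both Hemk1, for a methyltransferase, and Wdr82, for a subunit of a histone methyltransferase complex, lie on chromosome 9, with 25 tested genes between them. Hemk1 read -3.22 to -2.78 in APP/PS1 and -4.53 to -4.03 in WT H2O mice (1.28 ± 0.10; adjusted p = 8.14e-05). Wdr82 rose at 1 of 2 probes (0.88; adjusted p = 0.00232). Abhd14a, among the genes between them, read 1.59 to 1.8 in APP/PS1 and 1.81 to 2 in WT H2O mice. Its groups did not overlap, but the difference was small and it was not called (-0.20; adjusted p = 0.27).

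Of the WT MSX-3 mice, mouse 304 lay in the APP/PS1 range for Hemk1 at -2.48, for Wdr82 at -2.82 and for the unnamed probe A_52_P365925 at 1.81, while its Prnp at 5.46 lay in the WT range. The other 5 WT MSX-3 mice read -4.54 to -3.95 for Hemk1, -4.19 to -3.71 for Wdr82 and 2.53 to 2.97 for the unnamed probe. On MSX-3, with all 12 mice, the log2 fold changes were 1.14 (Hemk1; adjusted p = 0.419), 0.85 (Wdr82; 0.215) and -0.81 (A_52_P365925; 0.0748). Without mouse 304 they were 1.44, 1.04 and -0.96. That mouse was singled out by these same values, so no p is given for the smaller fit. Mouse 304 was also the WT MSX-3 mouse in that range for C4b, 4 called probes in all. Such cases also arose in other mice, 8 for mouse 303 and 7 for mouse 298. Of these probes, 2 of mouse 304, 1 of mouse 303 and 0 of mouse 298 were placed on chromosome 9. Abhd14a, which was not called, read 1.67 in mouse 304, in the APP/PS1 range, against 1.92 to 2.10 in the other 5 WT MSX-3 mice. Hemk1, Wdr82, Abhd14a and the unnamed probe were picked out after their values were seen. The cause was not tested.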
